A study of Mus musculus with 12 samples.

Results

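Ddit4, the sestrins Sesn1, Sesn2 and Sesn3, the tuberous sclerosis genes Tsc1 and Tsc2, and Depdc5 encode proteins that restrain mTORC1, the kinase complex that couples nutrients and growth signals to protein synthesis. These 7 genes were taken by symbol from the 55450 genes of the deposited count tables, and all 7 passed the low-count filter in every comparison. They were chosen with their levels in the 4 groups, their knockout-to-wild-type ratios and the difference between the genotypes' responses already known. Those values are therefore given as a description, with their errors and without p-values.

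The study sequenced polyadenylated RNA from mouse CD4 T cells of wild-type (WT) animals and of animals lacking Pkm2 (KO), the pyruvate kinase M2 form of the Pkm gene. Resting cells were kept for 24 h in medium with 25 ng/mL human IL7, a cytokine that keeps naïve T cells alive. Stimulated cells had the same IL7 and, in addition, plate-bound antibodies to CD3 (1 µg/mL in the coating solution) and CD28 (2 µg/mL), which engage the T cell receptor and its costimulatory receptor. Each of the 4 groups (WT resting, KO resting, WT stimulated, KO stimulated) held 3 libraries. All groups shared IL7, glutamine and serum. The knockout allele, the cell type in which Pkm2 was removed and the age of the mice are not given in the sources used here. For the culture time the labels name 24 h in one place and overnight in another, and for the tissue either splenocytes or spleen plus lymph nodes. No label ties a library to an animal, so p-values measure the spread between these libraries.

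Library totals ran from 63266477 to 72128433 counts in resting and from 67333490 to 76891786 in stimulated cells, so that 3 counts corresponded to 0.0390 to 0.0474 CPM. CPM, the unit of all levels here, is a gene's count relative to the library's total, scaled by the trimmed mean of M values (TMM) over the 12 libraries. Pkm, the targeted gene, stood at 424 to 509 CPM in WT and 172 to 195 CPM in KO resting libraries, and at 2450 to 2521 against 1036 to 1064 CPM after stimulation. This count covers both splice forms of the gene, and the genotypes did not overlap in either condition. The T cell gene Cd3e was present throughout, at 212 to 324 CPM, and so was Cd4, at 353 to 910 CPM. Resting libraries also held B cell, myeloid and erythroid transcripts. Sex-linked transcripts separated the conditions: Xist stood at 0.0496 to 0.0866 CPM in the 6 resting libraries and at 941 to 1126 CPM in the 6 stimulated ones, whereas Y-linked Ddx3y ran from 143 to 167 CPM in resting libraries and had 0 counts in the stimulated ones. Stimulation, the sex of the cells' donors and the deposited table, which is separate for each condition, therefore cannot be told apart in any stimulated-against-resting value. The same limit holds for the difference of the responses and for any genotype gap that differs between the conditions.

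mTORC1 is switched on at the lysosome by small GTPases of different families. The Rag GTPases bring it there when amino acids are plentiful, and Rheb, driven by growth factor and antigen receptor signals through PI3K and AKT, activates it. Tsc1 and Tsc2 form the complex that turns Rheb off, and Ddit4 (also called REDD1), a short-lived protein induced by hypoxia, glucocorticoids and nutrient stress, promotes the activity of that complex. Depdc5 belongs to GATOR1, which turns the Rag GTPases off. The sestrins hold back GATOR2, the antagonist of GATOR1, when leucine is scarce. In T cells mTORC1 stays low in the naïve state, rises with receptor engagement and is needed for growth before division.

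The promoters of Ddit4, Sesn1 and Sesn2 are shown because these 3 members had the largest log2 fold changes with stimulation in WT, in different directions; in KO, Sesn3 changed more than Ddit4. Each is the RefSeq window (GRCm38.p6) of 250 bases before to 50 bases after the annotated start, written 5′ to 3′ on the gene's strand. Ddit4 is at chr10:59951721-59952020 (minus strand), Sesn1, at its upstream start, at chr10:41810324-41810623 (plus strand) and Sesn2 at chr4:132510407-132510706 (minus strand). Capitals mark the motifs found.
Ddit4: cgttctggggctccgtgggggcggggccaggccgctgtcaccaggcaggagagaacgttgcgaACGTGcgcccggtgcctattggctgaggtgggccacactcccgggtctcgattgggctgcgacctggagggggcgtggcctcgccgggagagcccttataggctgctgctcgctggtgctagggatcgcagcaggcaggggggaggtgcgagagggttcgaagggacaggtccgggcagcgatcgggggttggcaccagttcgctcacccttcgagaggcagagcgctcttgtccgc
Sesn1: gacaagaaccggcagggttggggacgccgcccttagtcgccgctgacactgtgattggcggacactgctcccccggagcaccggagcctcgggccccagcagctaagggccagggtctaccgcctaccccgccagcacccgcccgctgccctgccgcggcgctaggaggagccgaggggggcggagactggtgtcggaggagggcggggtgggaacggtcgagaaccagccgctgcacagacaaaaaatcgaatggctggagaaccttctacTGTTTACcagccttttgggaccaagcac
Sesn2: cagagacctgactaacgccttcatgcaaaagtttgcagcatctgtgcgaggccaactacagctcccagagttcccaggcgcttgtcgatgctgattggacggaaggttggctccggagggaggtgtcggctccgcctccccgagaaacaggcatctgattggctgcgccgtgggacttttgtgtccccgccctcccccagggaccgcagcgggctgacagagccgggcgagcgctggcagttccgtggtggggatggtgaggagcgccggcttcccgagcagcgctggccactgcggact

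In all, 4 motifs were searched on both strands of the promoters of all 7 members: ACGTG, the core of a hypoxia response element, GTAAACA, a forkhead (FoxO) motif, and TTGCATCA and TGATGNAA, both amino acid response elements of the ATF4 type. Every TTGCATCA is also a TGATGNAA match on the opposite strand. The Ddit4 window held 1 ACGTG, starting at base -187 relative to the start. The upstream Sesn1 window held 1 GTAAACA on the minus strand, which reads TGTTTAC on the gene's strand and starts at base 22. The second Sesn1 window and those of Sesn2, Sesn3, Tsc1, Tsc2 and Depdc5 held none of the 4. Of 32851 promoter windows of the same length, 19.6% held ACGTG, 3.65% GTAAACA, 0.895% TTGCATCA and 3.97% TGATGNAA.

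Ddit4 (ENSMUSG00000020108.4, chr10:59949669-59951834 in mm10, minus strand) was the member with the widest gap between the genotypes, and that gap was present in resting cells and not in stimulated ones. Its level was 192, 160 and 162 CPM in the 3 WT resting libraries and 97.3, 103 and 95.4 CPM in the KO resting libraries. After stimulation it was 58.0, 47.9 and 56.8 CPM in WT and 53.8, 54.3 and 56.9 CPM in KO. All KO resting libraries lay below all WT resting libraries, and the stimulated libraries of both genotypes were mixed and lower than any resting library.

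In resting cells the KO mean of Ddit4 was 98.5 ± 3.78 CPM (SD, n = 3) against 171 ± 18.3 CPM in WT, a log2 fold change of -0.81 ± 0.08 (SE) or 0.571 of the WT level. A larger absolute log2 fold change was seen in 5.87% of the 16637 genes tested. In stimulated cells the means were 55.0 ± 1.65 in KO and 54.2 ± 5.52 CPM in WT, with a log2 fold change of 0.03 ± 0.07. With stimulation Ddit4 fell by 1.66 ± 0.08 on the log2 scale in WT (to 0.316 of the resting level) and fell by 0.84 ± 0.08 in KO (to 0.559). The difference of the responses, KO minus WT, was 0.82 ± 0.11 on the log2 scale. The resting KO-to-WT ratio and this difference use the same resting libraries, so one is not independent of the other. Markers of other cell types also fell with stimulation, and unequally in the genotypes. The sum of 12 myeloid markers went from a mean of 1820 to 16.5 CPM in WT and from 875 to 28.8 CPM in KO, and that of 10 B cell markers from 1651 to 468 CPM and from 1629 to 730 CPM. Their part in the responses of the 7 genes, and in the differences between the responses, was not tested. In these bulk samples, less RNA per cell and fewer cells that contain the transcript cannot be told apart.

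Myeloid transcripts also differed between the resting genotypes. The summed level of 12 myeloid markers, all detected, was 2910, 1560 and 989 CPM in WT resting libraries 1 to 3 and 850, 883 and 892 CPM in the KO resting libraries. In WT resting libraries 2 and 3, whose myeloid sums differed, Ddit4 was at 160 and 162 CPM. Without WT resting library 1, which had the highest myeloid sum and Ddit4 level, the log2 fold change of Ddit4 was -0.71. Without WT resting library 3, which had the lowest myeloid sum of the WT resting libraries, it was -0.86. With library 1 left out of both resting groups the log2 fold change was -0.70. The sum of 10 B cell markers overlapped between the resting genotypes, at 1182 to 2111 CPM in WT and 1521 to 1697 CPM in KO. The part of other cell types in the Ddit4 difference was not tested.

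**Figure D1:**
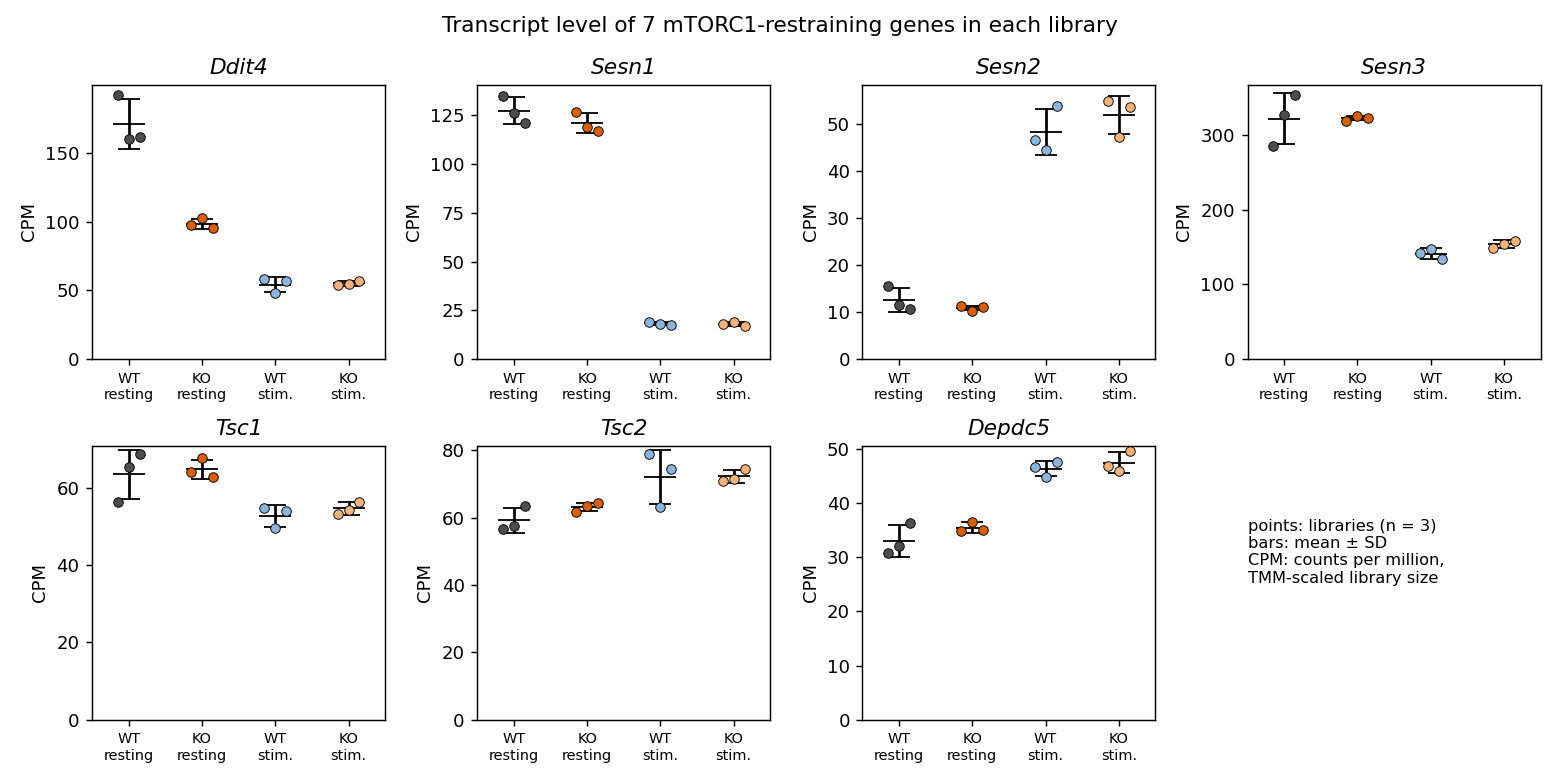
Level of each of the 7 genes (vertical axis, TMM-scaled CPM from 0) in WT and KO, resting and stimulated libraries; points are libraries and bars are mean ± SD of 3. Ddit4 alone has KO resting libraries (95.4 to 103 CPM) wholly below WT resting ones (160 to 192 CPM), and the sestrins separate by condition.

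The sestrins differed mainly between resting and stimulated cells, and in opposite directions. Sesn1 and Sesn3, the members with the highest resting level after Ddit4 per kilobase, fell in stimulated cells, and Sesn2 rose. Sesn1, Sesn2 and Sesn3 encode related proteins, and SESN2 is the sestrin best known as a leucine sensor and as a gene induced by amino acid shortage.

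Sesn1 (chr10:41809935-41908424, plus strand) was at 135, 126 and 121 CPM in WT and 127, 119 and 117 CPM in KO resting libraries. It dropped to 18.9, 18.2 and 17.6 CPM in WT and 18.1, 19.0 and 17.0 CPM in KO stimulated libraries. The genotypes overlapped in each condition, and the lowest resting value was far above the highest stimulated one. The log2 fold change with stimulation was -2.80 ± 0.06 in WT (0.143 of the resting level) and -2.74 ± 0.06 in KO (0.149), the largest change among the members. KO against WT gave -0.08 ± 0.06 at rest and -0.01 ± 0.06 after stimulation.

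Sesn2 (chr4:132492032-132510501, minus strand) was the lowest sestrin at rest, at 15.5, 11.5 and 10.7 CPM in WT and 11.3, 10.3 and 11.0 CPM in KO. It reached 46.7, 44.4 and 53.9 CPM in WT and 55.0, 47.3 and 53.6 CPM in KO stimulated libraries. Every stimulated library exceeded every resting one, and the genotypes overlapped within each condition. The rise was 1.94 ± 0.13 on the log2 scale in WT (3.84-fold) and 2.26 ± 0.13 in KO (4.78-fold). The difference between these responses was 0.32 ± 0.18. At rest the KO-to-WT value of -0.22 ± 0.15 rested on WT library 1, and without that library it was -0.03.

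Sesn3 (chr9:14275067-14333101, plus strand) was at 286, 327 and 354 CPM in WT and 320, 325 and 323 CPM in KO resting libraries. Stimulated libraries had 142, 148 and 134 CPM in WT and 148, 155 and 158 CPM in KO. At rest the WT libraries spread on either side of the KO libraries, whereas after stimulation the lowest KO library lay just above the highest WT library. KO against WT was -0.01 ± 0.08 at rest and 0.13 ± 0.04 in stimulated cells, where the means were 154 ± 5.16 and 141 ± 7.08 CPM. With stimulation Sesn3 fell by 1.19 ± 0.07 on the log2 scale in WT (to 0.438) and fell by 1.07 ± 0.07 in KO (to 0.476).

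The 3 sestrins were set on a common scale by dividing CPM by the length of each gene's merged exons, 3982 bases for Sesn1, 3475 for Sesn2 and 15269 for Sesn3. Their summed level was 56.7 ± 0.316 CPM per kilobase in WT and 54.6 ± 1.23 in KO resting cells, and 27.7 ± 0.867 and 29.6 ± 0.890 in stimulated cells. Sesn1 made up 56.4 ± 2.80% of the sum in WT and 55.6 ± 1.13% in KO resting cells, and 16.5 ± 0.974% and 15.4 ± 1.30% in stimulated cells. Sesn2 made up 6.38 ± 1.28% and 5.72 ± 0.211% at rest, and 50.1 ± 3.53% and 50.6 ± 2.51% after stimulation. The Sesn3 share stayed between 30.5% and 40.9% in all 12 libraries. The leading sestrin transcript was thus Sesn1 in each resting library and Sesn2 in each stimulated library, in both genotypes. These shares are ratios within a library and do not depend on how libraries were scaled to each other, but they depend on the exon lengths used.

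**Figure D2:**
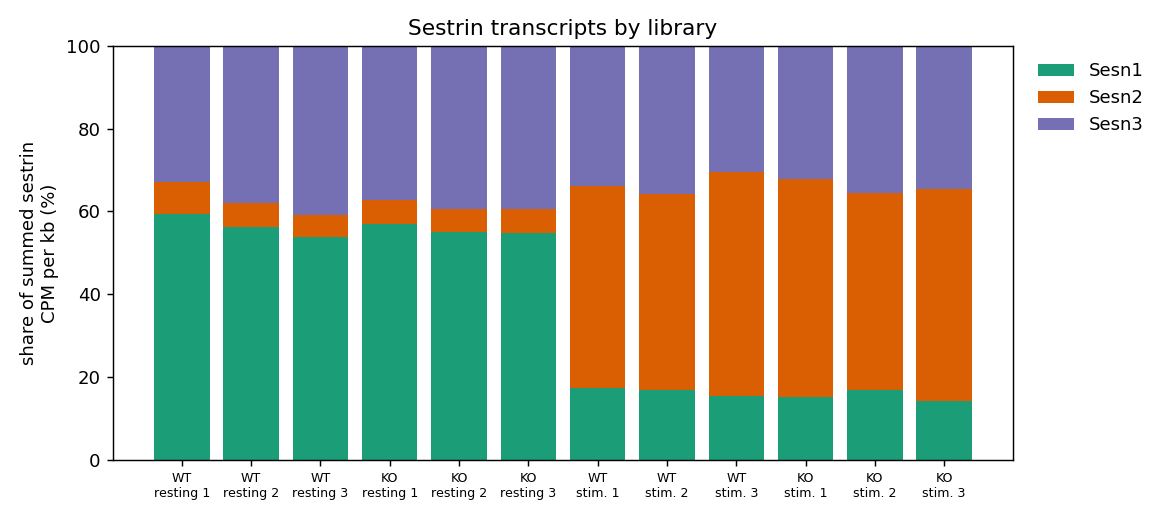
Share of each sestrin in the summed sestrin level (vertical axis, % of CPM per kilobase of merged exons) in each of the 12 libraries. Sesn1 fills the lower 53.7 to 59.3% of each resting bar and 14.2 to 17.3% of each stimulated bar, and Sesn2 grows from 5.43 to 7.84% at rest to 47.3 to 54.1%.

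Tsc1 and Tsc2, the scaffold and the GTPase-activating subunit of the TSC complex, moved far less. Tsc1 (chr2:28641228-28691167, plus strand) was at 56.2, 65.3 and 68.6 CPM in WT and 63.9, 67.6 and 62.8 CPM in KO resting libraries. In stimulated libraries it was at 54.7, 49.5 and 54.0 CPM in WT and 53.3, 54.2 and 56.4 CPM in KO. WT resting library 1 was close to the stimulated libraries, and the genotypes overlapped in both conditions. Tsc1 fell by 0.27 ± 0.07 on the log2 scale in WT and fell by 0.25 ± 0.07 in KO with stimulation. KO against WT was 0.02 ± 0.07 at rest and 0.06 ± 0.05 after stimulation.

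Tsc2 (chr17:24595816-24632630, minus strand) was at 56.7, 57.7 and 63.6 CPM in WT and 61.8, 63.4 and 64.4 CPM in KO resting libraries, and at 78.8, 63.3 and 74.5 CPM in WT and 70.8, 71.6 and 74.3 CPM in KO stimulated ones. WT resting and stimulated libraries overlapped, because WT stimulated library 2 had only 63.3 CPM. The response was 0.28 ± 0.07 in WT and 0.19 ± 0.07 in KO on the log2 scale. Its direction depended on the scaling: with library totals in place of TMM it was -0.05 in WT and, in KO cells, -0.13. KO against WT was 0.08 ± 0.05 at rest and 0.01 ± 0.08 after stimulation. Exons of Tsc2 overlap those of Pkd1, which lies on the opposite strand, over 693 bases. Pkd1 went from 154 to 38.2 CPM in WT and from 162 to 44.4 CPM in KO with stimulation. Whether counting used strand is not stated, so reads from the shared bases cannot be assigned.

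Depdc5 (chr5:32863701-32994236, plus strand), the largest GATOR1 subunit, was at 30.8, 32.1 and 36.4 CPM in WT and 34.9, 36.6 and 35.0 CPM in KO resting libraries. It was at 46.6, 44.8 and 47.6 CPM in WT and 46.8, 46.0 and 49.6 CPM in KO stimulated libraries. All stimulated libraries exceeded all resting ones. The rise was 0.49 ± 0.06 in WT and 0.42 ± 0.06 in KO on the log2 scale, and with library totals the KO value was 0.09 and no longer passed the threshold. KO against WT was 0.09 ± 0.06 at rest and 0.04 ± 0.04 after stimulation.

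**Figure D3:**
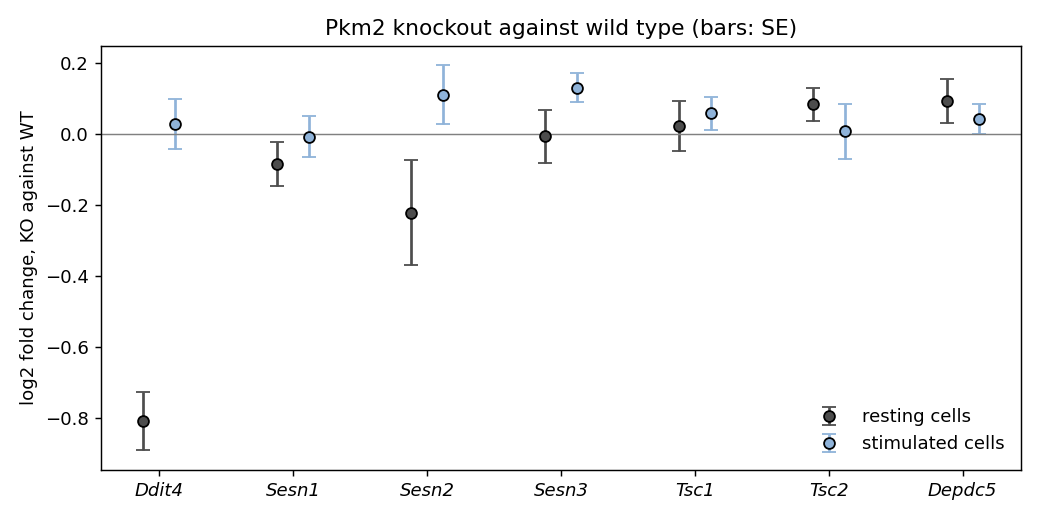
KO against WT (vertical axis, log2 fold change; bars are SE) for each of the 7 genes in resting (dark) and stimulated (light) cells. Resting Ddit4 stands apart at -0.81, and the other values lie between -0.22 and 0.13.

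Counts over the 7 genes were set beside all genes tested. KO against WT at rest, 0 of 7 members passed an adjusted p of 0.05 by edgeR's quasi-likelihood test, where 0.0361% of the 16637 genes passed. At an unadjusted p under 0.05 there was 1 member, Ddit4, beside 13.7% of all genes, and DESeq2's Wald test called 1, again Ddit4, beside 3.69% of genes with an adjusted p. The WT and KO resting libraries did not overlap for 1 member, Ddit4, and for 19.8% of all genes. In stimulated cells 0 of 7 passed by edgeR, against 4.76% of 15090 genes, with 1 (Sesn3) at an unadjusted p under 0.05, against 20.6%, and 0 by DESeq2, against 7.97%. Non-overlap was seen for 1 member, Sesn3, and for 28% of all genes. The median log2 fold change of the members was -0.01 at rest and 0.04 after stimulation, and that of all genes tested was 0.01 and -0.00. Nothing is read from these counts, since the members were chosen on these contrasts.

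Most genes differed between stimulated and resting libraries. All 7 members passed in WT, 3 upward and 4 downward, where 84.1% of the 17460 genes tested passed, 39.3% upward and 44.8% downward. All 7 also passed in KO, again 3 upward and 4 downward, where 82.9% passed, 39.6% upward and 43.2% downward. Nothing is read from these counts, since the members were chosen with their levels in the 4 groups known. The median over the members was -0.27 in WT and -0.25 in KO, beside -0.14 and -0.11 over all genes. Library totals in place of TMM moved the median of all genes to -0.47 in WT and -0.44 in KO. The difference of responses passed for 1 of 7 members, Ddit4, and for 0.693% of all genes; nothing is read from that count, since Ddit4 was chosen with this difference known. Apart from Ddit4 and Sesn2, the differences of responses were 0.12 ± 0.09 for Sesn3, 0.06 ± 0.08 for Sesn1, 0.02 ± 0.10 for Tsc1, -0.07 ± 0.08 for Depdc5 and -0.09 ± 0.10 for Tsc2.

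**Figure D4:**
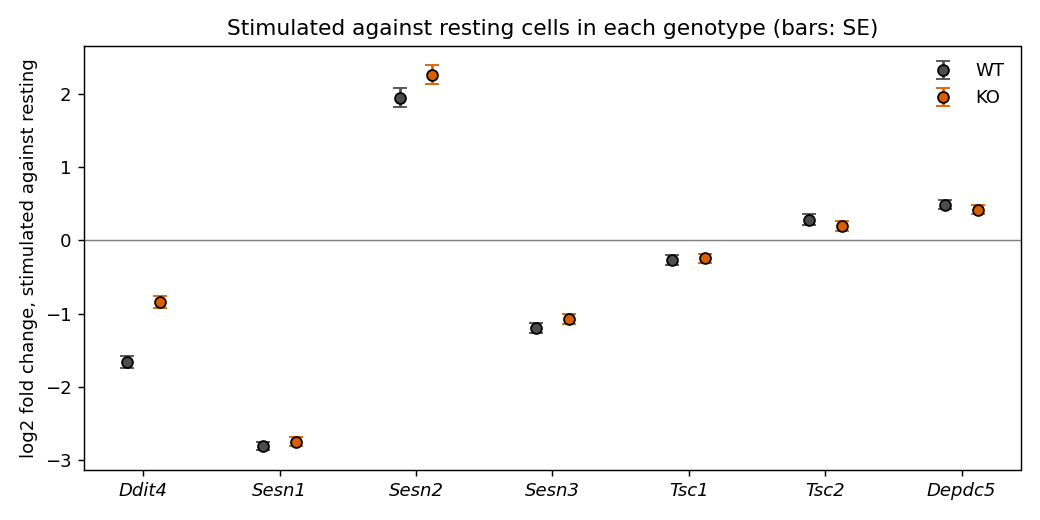
Stimulated against resting cells (vertical axis, log2 fold change; bars are SE) for each of the 7 genes in WT (grey) and KO (orange). For Ddit4 the KO value is -0.84 and the WT value -1.66, and for the other 6 genes the genotypes differ by at most 0.32.

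Per kilobase of merged exons, Ddit4 was the most abundant member in every group, at 97.6 CPM per kilobase in WT resting, 56.1 in KO resting, 30.9 in WT stimulated and 31.3 in KO stimulated cells. At rest the order below Ddit4 was Sesn1, Sesn3, Tsc2, Tsc1, Sesn2 and Depdc5 in both genotypes. In WT resting cells these stood at 32.0, 21.1, 6.17, 5.36, 3.62 and 2.81 CPM per kilobase. Of the neighbours in that order, Sesn2 and Depdc5 overlapped between libraries and the others did not, in either genotype. In stimulated cells Sesn2 moved up to the second place, at 13.9 CPM per kilobase in WT and 15.0 in KO, followed by Sesn3 (9.24 and 10.1) and Tsc2 (7.50 and 7.51). Sesn1 (4.58 and 4.53) and Tsc1 (4.46 and 4.62) then overlapped, and Depdc5 was lowest at 3.94 and 4.03.

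The genes whose course over the 12 libraries was nearest to that of a member were found by the root mean square (RMS) difference of centred log2(CPM + 0.5) among 10424 genes. For Ddit4 they were Tbc1d2b (0.187), Ctsd (0.193) and Nradd (0.194), against a median of 0.853 over all genes. Tbc1d2b was at 112, 91.4, 41.1 and 40.7 CPM and the lysosomal protease gene Ctsd at 468, 316, 141 and 138 CPM in WT resting, KO resting, WT stimulated and KO stimulated cells. Ctsd followed the myeloid sum in WT resting libraries 1 to 3, at 616, 422 and 366 CPM. For Sesn1 the nearest were Rflnb (0.0759), Gabbr1 (0.0943) and Tmem63a (0.104), against a median of 1.47. Rflnb was at 208 and 206 CPM in resting and 31.2 and 29.2 CPM in stimulated WT and KO cells. For Sesn2 they were Etv6 (0.0993), Arl6 (0.109) and Fbxo48 (0.117), against 0.976, and Etv6 went from 53.2 and 46.8 to 191 and 194 CPM. For Sesn3 they were Dcaf11 (0.0484), Ldb1 (0.0507) and Dennd1b (0.0516), against 0.761. Dcaf11 was at 109 and 111 CPM in resting and 48.0 and 53.1 CPM in stimulated cells. The nearest genes of Ddit4 were thus farther from it than those of the 3 sestrins were from them.

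Around the members, 94 further symbols of the pathway were listed by role, of which 89 were in the tables and 87 or 88 passed the low-count filter. At rest 0 of 87 differed between genotypes by edgeR, with 10 at an unadjusted p under 0.05 (13.7% of all genes) and 1, Txnip, by DESeq2 (3.69%). In stimulated cells 3 of 87 were higher in KO and none lower by edgeR, against 4.76% of all genes, and DESeq2 called 7, against 7.97%. Pik3r5, a regulatory subunit of the PI3K-gamma enzyme, was at 33.9 ± 1.19 CPM in WT and 41.9 ± 0.946 CPM in KO (log2 fold change 0.31 ± 0.04, edgeR adjusted p = 0.00611, kept without any of the 6 libraries). Txnip, an arrestin-like protein that limits glucose uptake and is known to bind DDIT4, was at 30.7 ± 2.27 and 38.2 ± 2.14 CPM (0.32 ± 0.06, edgeR adjusted p = 0.0221). Its call was lost without KO library 2 (0.101) or KO library 3 (0.100). B cell markers, 10 of 10 detected, summed to 365 to 565 CPM in WT and 719 to 749 CPM in KO stimulated libraries, and myeloid markers to 12.6 to 22.4 and 26.0 to 31.9 CPM. Their part in these values was not tested. The pathway lists were chosen with earlier results of these data known, so the counts and adjusted p-values in this paragraph are a description.

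The difference of responses lay above 0, the direction seen for Ddit4, in 44 of the 88 pathway genes tested. Txnip was 1 of them. It went from 691 ± 51.8 to 30.7 ± 2.27 CPM in WT and from 576 ± 31.8 to 38.2 ± 2.14 CPM in KO, and the log2 responses of -4.49 ± 0.08 and -3.91 ± 0.08 differed by 0.58 ± 0.10 (edgeR adjusted p = 0.0268). Txnip was the only 1 of 88 to pass this test, where 0.693% of all genes did, and its call was lost without KO resting library 2 or 3, WT stimulated library 1 or 3, or KO stimulated library 2 or 3, with adjusted p up to 0.0875. DESeq2 called 5 of 88, against 7.03% of genes, and 15 had an unadjusted p under 0.05, against 15.9%. The pathway lists were chosen with earlier results of these data known, so these counts and the adjusted p of Txnip are a description. Ddit4l, the relative of Ddit4, was at 0.108 to 0.163 CPM on average in the 4 groups, and single libraries ran from 0.0132 to 0.249 CPM.

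With stimulation 78 of 88 pathway genes changed in each genotype by edgeR, 42 upward and 36 downward. That is 88.6%, near the 84.1% in WT and 82.9% in KO over all genes, so the counts by list that follow are a description. With library totals in place of TMM these were 28 upward and 48 downward in WT, and 29 and 47 in KO. All 3 genes that belong with Tsc1 and Tsc2 rose: Tbc1d7, the third subunit of the TSC complex, by 1.83 ± 0.10 on the log2 scale in WT, Rhebl1 by 1.07 ± 0.09 and Rheb by 0.46 ± 0.05. Of the other GATOR1 genes beside Depdc5, Nprl2 fell by 0.81 ± 0.07 and Nprl3, at 23.8 and 22.7 CPM in WT, did not pass. With library totals 2 of 2 passed downward in each genotype, Nprl3 included. All 5 GATOR2 genes, the targets of the sestrins, rose, among them Seh1l by 1.60 ± 0.04 and Wdr59 by 1.57 ± 0.04; the direction of Wdr24 alone turned with library totals. In KICSTOR, the anchor of GATOR1, Itfg2 and BC048403 rose and Kptn fell.

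Of the 13 Rag, Ragulator and folliculin genes 9 rose and 4 fell in WT (5 and 5 with library totals), with the arginine sensor Slc38a9 at -1.67 ± 0.08 on the log2 scale. Of 5 genes listed as other amino acid sensors, 2 rose and 3 fell: the leucyl-tRNA synthetase gene Lars rose by 2.09 ± 0.06, and Bmt2 and Castor2, a GATOR2-binding relative of the arginine sensor CASTOR1, were at -1.30 ± 0.07 and -1.16 ± 0.06. Of 9 genes of the mTOR complexes 5 rose and 3 fell (3 and 3 with library totals), and those lower were Prr5l, Rictor and Deptor, the last an inhibitor of mTOR. Of 13 mTORC1 substrates 3 rose and 7 fell (3 and 10 with library totals), with Eif4ebp1 at 2.63 ± 0.19, Larp1 at 2.00 ± 0.06 and Lpin1 at -2.22 ± 0.09. The AMPK and LKB1 genes gave 7 upward and 1 downward with TMM and 1 upward and 6 downward with library totals. Of 13 PI3K and AKT pathway genes 3 rose and 9 fell (2 and 11 with library totals), led by the PI3K inhibitor Pik3ip1 at -5.22 ± 0.08, from 102 to 2.72 CPM. Of 8 transcription factors known to induce Ddit4 or sestrins, Atf4 (1.85 ± 0.05), Hif1a (1.77 ± 0.06) and Trp53 rose. Epas1 (-2.83 ± 0.17), Foxo1, Foxo3, Foxo4 and Nr3c1 fell. Between genotypes edgeR called 0 of 8 at rest, beside 0.0361% of all genes, and 0 of 8 in stimulated cells, beside 4.76%. DESeq2 called Nr3c1 in stimulated cells, where it called 7.97% of genes. The log2 values in this paragraph and the last are for WT, and the edgeR adjusted p of each was at most that of Rheb, 9.18e-07.

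**Figure D5:**
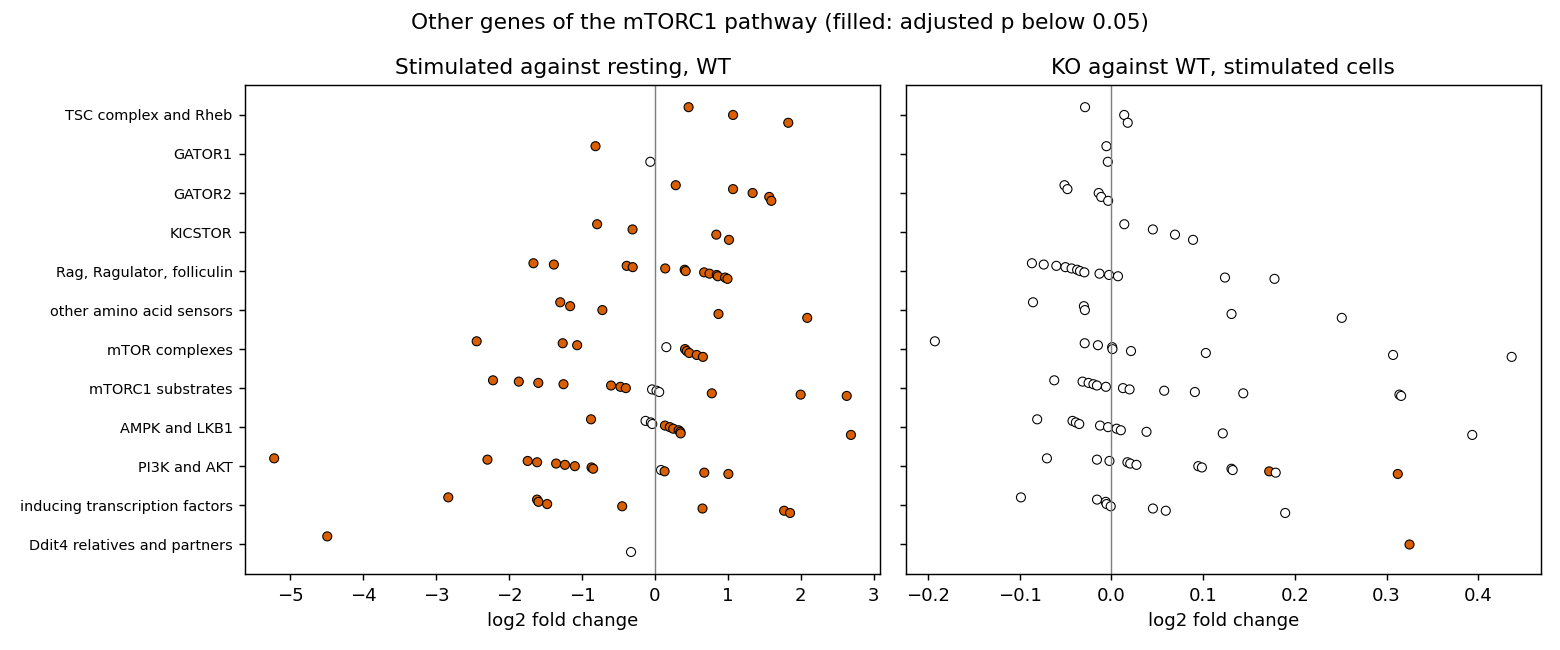
Log2 fold change (horizontal axes) of the other pathway genes by list, for stimulated against resting WT cells (left) and KO against WT in stimulated cells (right, a narrower axis); each point is a gene, filled where the edgeR adjusted p was below 0.05. On the left most points are filled and lie on both sides of 0, and on the right 3 of 87 are filled, Pik3r5 and Txnip among them.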

How the data were processed

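Per the labels' protocols, polyadenylated RNA of mouse CD4 T cells was made into stranded libraries, 12 in all. The deposited values are expected counts that the authors estimated for each gene with RSEM, with a table for each condition. Per the submitters' processing notes, bcl2fastq 2.20, cutadapt 1.18, STAR 2.7.0f, RSEM 1.3.1 and the mm10 build were used; the sources used here do not say if counting took account of strand. From 6.87% to 7.18% of values per library were not whole, and all were rounded. Gene positions and exon lengths came from GENCODE M21, which held all 55450 gene IDs.

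KO was compared with WT in the 6 libraries of each condition. Stimulation and the difference of the genotypes' responses were tested in 1 fit of 4 group means over the 12 libraries. The test was the quasi-likelihood F test of edgeR 4.0.16 (R 4.3.3, limma 3.58.1), robust, with TMM scaling, edgeR's low-count filter (10 counts, 15 in total) and Benjamini-Hochberg adjustment over all genes tested at 0.05. Standard errors were derived from the F statistic. The scripts were tested on simulated counts with planted changes of 1 or 0.5 on the log2 scale. At rest 50% and 37% of these were called in the right direction, and in stimulated cells 75% and 66%. For the difference of responses 46% and 22% were called. A change of that size can therefore not be taken as absent where it was not called. Totals of 63266477 to 76891786 counts per library put 3 counts at 0.0390 to 0.0474 CPM, which covers counting error only. The alternatives were other scalings, filters and robustness, DESeq2 1.42.0, a replicate block and leaving out libraries.

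The members and gene lists were chosen with earlier results of these data known. From each list of other pathway genes, up to 3 per comparison with the largest change past the threshold, or up to 2 with the highest level where none passed, were eligible to be named. Genes listed without a value, Wdr24 among them, and Nprl3 are named in addition, to account for the counts. The direction of other called pathway genes also turned with library totals, and not all of these are named. Replicate pairs within a group differed by more than sampling noise, which cannot show whether they came from separate animals. Each library was treated as a sample. Protein sequences are not used here. Single values of 2 pathway genes that are included in the counts are not reported here.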

Additional observations from a re-analysis of the deposited data

Results flagged for a closer look

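The response of Txnip to stimulation differed between the genotypes by 0.58 on the log2 scale, KO minus WT (edgeR adjusted p = 0.0268): the level fell from 691 to 30.7 CPM in WT and from 576 to 38.2 CPM in KO. This call was lost in 6 of the 12 fits that left out 1 library, with adjusted p up to 0.0875, and with the replicate block (0.0653). For Ddit4 the difference was 0.82, from 171 to 54.2 CPM in WT and from 98.5 to 55.0 CPM in KO. Ddit4 was chosen with that value known, so it is a description and not a test. The list that holds Txnip was also chosen with earlier results of these data known. Its adjusted p is therefore a description too. The genotype gap of Ddit4 lay in resting cells. That of Txnip had opposite signs in the 2 conditions, with log2 fold changes of -0.27 ± 0.07 at rest and 0.32 ± 0.06 after stimulation. The conditions also differ in the sex of the donors and in the deposited table, which cannot be told apart from stimulation in these differences.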

How the results depend on the processing

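At rest Ddit4 ran from -0.86 to -0.70 over 15 alternatives, and members called numbered 1 with DESeq2 size factors, DESeq2, no filter, all 12 libraries fitted, or both resting groups short of their first library, and 0 to 1 when 1 library was left out. Its difference of responses ran from 0.73 to 0.87 over 20 alternatives, and members called were 0 to 1, with 0 without KO stimulated library 3 (0.80). Ddit4 was chosen on both values, so these ranges and counts support nothing. The counts of members that follow support nothing either, since all members were chosen with their levels known. With 1 library left out, members called were 0 to 1 in stimulated KO against WT (Sesn3; 1 also with no filter), 7 for stimulation in WT and 6 to 7 in KO.

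Pathway genes called at rest were 1 with DESeq2 or all 12 libraries. In stimulated cells they were 5 with library totals or a 1 CPM filter, 7 with DESeq2 or no filter, 1 with all 12 libraries and 1 to 5 with 1 library left out. For the difference they were 5 with DESeq2, 2 without the first resting libraries and 0 to 7 with 1 library left out. All genes called at rest (6) were 518 with DESeq2, 40 with no filter, 161 with all 12 libraries, 30 without the first libraries and 2 to 18 with 1 left out. In stimulated cells (719) they were 1133 with DESeq2, 219 with all 12 libraries and 128 to 1408 with 1 left out. For the difference (121) they were 1012, 204 with the 1 CPM filter, 209 without the first resting libraries and 27 to 1646. The cause was not tested.

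Signs turned for genotype values and differences of responses near 0, and with library totals also for some responses that passed with TMM. At rest Sesn3 was 0.023 with library totals, 0.0019 with all 12 libraries and -0.078 to 0.051 with 1 left out, and Tsc1 was -0.044 without the first libraries and -0.050 to 0.070. In stimulated cells Ddit4 ran from -0.056 to 0.079, Sesn1 from -0.046 to 0.036 (0.014 with totals, 0.0021 with the 1 CPM filter) and Tsc2 from -0.080 to 0.075. With library totals Tsc2 responded by -0.052 in WT (0.28 with TMM) and by -0.13 in KO (0.19 with TMM). Prkag2 in KO responded by -0.071 (0.26 with TMM). The difference for Tsc1 was -0.0033 with DESeq2 size factors, -0.0034 with DESeq2 and -0.039 to 0.10 with 1 left out.

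Correlations did not settle whether the replicate numbers pair the samples. Same-numbered WT and KO libraries correlated at 0.40, -0.17 and 0.38 at rest and -0.06, 0.04 and 0.09 after stimulation. At rest WT libraries 1 and 3 correlated best with the same-numbered KO library, though WT library 3 had 0.37 with KO library 2. WT resting library 2 correlated best with KO library 1 (0.19). With the replicate block, pathway genes called were 5 in stimulated cells and 0 for the difference, and the Tsc1 response was -0.16 in WT and -0.14 in KO and did not pass. Counting error was small at these depths for the members, so that 3 libraries a group limit the precision.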
